A study of Mus musculus with 2 samples.

Results

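Cells with transcripts of Gata3 and of Il1rl1, and few or none that mark T cells or basophils, were taken as innate lymphoid cells. They made up 188 of the 15650 HFD cells and 256 of the 14302 ND cells, 444 of 29952 in all. The label did not hold for all of them, as given below. Gata3 encodes the master transcription factor of type 2 lymphocytes, and Il1rl1 encodes ST2, the receptor for the alarmin interleukin-33. A cell was taken when it held at least 1 UMI (1 counted RNA molecule) of each gene, when no more than 1 of Cd3d, Cd3e and Cd3g was detected, and when Mcpt8, Cpa3 and Ms4a2 together had under 3 UMIs. The cells were thus chosen by the measured UMIs of those 8 genes, whose levels are given only as a description. The high-fat (HFD) library came from marrow of male wild-type mice of the strain labelled C57B/6, kept for 16 weeks on a diet with 60% fat. The normal-diet (ND) library came from male wild-type C57B/6 mice on chow over the same 16 weeks. Each diet is 1 library, made on the BD Rhapsody whole-transcriptome system together with 5 antibody tags. The labels do not say how many animals stand behind a library, whether they were pooled or whether cells were enriched. With a single library per diet there is no replicate spread and no test between diets. All intervals are 95% intervals of counting error, and they do not cover the clustering of UMIs in single cells.

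Type 2 innate lymphoid cells (ILC2) are tissue lymphocytes without an antigen receptor. They develop in bone marrow from lymphoid precursors under Gata3, Rora, Bcl11b and Gfi1, and they answer epithelial and stromal alarmins (interleukin-33, interleukin-25 and TSLP) with interleukin-5, interleukin-13 and amphiregulin. In marrow they are known as lineage-negative cells that carry Sca-1, the interleukin-7 receptor, CD25 and ST2, with little of the effector programme seen in lung or fat. In fat tissue they are known for sustaining eosinophils and for changes of number in obesity.

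The promoters of Il1rl1 are shown because GATA factors, the family of Gata3, bind the letters AGATAA or TGATAA. RefSeq places 2 transcription starts of Il1rl1 on mouse chromosome 1 (GRCm38.p6, plus strand), and the 250 bases before each are printed 5′ to 3′, with matches to AGATAA or TGATAA on either strand in capitals. The upstream start has 2 matches and the downstream start has 1, which reads as TTATCT because it lies on the other strand.
Il1rl1 upstream start, chr1:40429320-40429569: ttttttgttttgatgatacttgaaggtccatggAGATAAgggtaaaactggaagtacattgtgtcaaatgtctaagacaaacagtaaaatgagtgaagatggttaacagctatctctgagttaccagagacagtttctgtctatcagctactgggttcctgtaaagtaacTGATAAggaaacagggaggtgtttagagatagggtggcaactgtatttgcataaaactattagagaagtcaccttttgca
Il1rl1 downstream start, chr1:40439379-40439628: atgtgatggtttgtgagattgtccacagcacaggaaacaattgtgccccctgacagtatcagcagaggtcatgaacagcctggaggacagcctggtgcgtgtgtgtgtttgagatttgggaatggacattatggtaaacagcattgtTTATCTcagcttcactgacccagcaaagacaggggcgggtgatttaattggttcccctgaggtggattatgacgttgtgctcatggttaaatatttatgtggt
A match is a description of these letters, not a binding site. Of all 32851 RefSeq promoters, 16.6% hold a match in the same 250 bases. The deposited counts do not tell which of the 2 starts was used.

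Gata3 had 802 UMIs in the HFD cells and 1334 in the ND cells, with a median of 3 and 5 per cell. Il1rl1 had 813 and 1307 UMIs, with a median of 4 and 4.5 per cell. These cells held 43.8% of the Gata3 UMIs of all HFD cells and 59.3% of those of all ND cells, and 14.5% and 20.6% of the Il1rl1 UMIs. Some cells stood at the edge of the gate. Gata3 was at exactly 1 UMI in 38 HFD and 32 ND cells, and Il1rl1 in 23 and 35. Both genes were at exactly 1 UMI in 6 HFD and 10 ND cells. A Cd3 gene was detected in 3 HFD and 5 ND cells, and a UMI of Mcpt8, Cpa3 or Ms4a2 in 31 and 41. Just outside the gate stood 9 HFD and 3 ND cells with 2 or 3 Cd3 genes, 36 and 25 cells with 3 or more basophil UMIs, 253 and 333 cells with Gata3 but no Il1rl1, and 724 and 928 cells with Il1rl1 but no Gata3.

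The cells were small in RNA content. Their median was 2357 UMIs in the HFD library and 2557.5 in the ND library, against 4196.5 and 4596.5 over all cells. A minority was far deeper. In the HFD library 25 cells, and in the ND library 24, had 8000 UMIs or more, with medians of 20114 and 27335. These few cells held 59.6% of the HFD and 52.9% of the ND UMIs of the whole gate, so every sum over the gate leans on them. The line at 8000 was drawn after the depths were seen, and the diet results that follow are given over all cells and under that line, save where too few UMIs are left. The libraries held 117773643 (HFD) and 117999042 (ND) RNA UMIs. Of the cell index numbers, 263 occurred among the cells kept in both libraries, and 0 among the Gata3 and Il1rl1 cells.

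The label was checked with 24 type 2 ILC markers that the gate did not use. In the HFD library 174 of 188 cells (92.6%, 87.8 to 95.9%) had 3 or more of them, and in the ND library 242 of 256 (94.5%, 91.0 to 97.0%). The median cell had 9 of the 24 in both libraries. To set cell types of unlike depth side by side, each cell was thinned at random to 1000 UMIs. Then 83.3% of HFD and 87.9% of ND cells still had 3 or more markers. The same share was 28.3% and 27.8% in a T cell gate (2 or more Cd3 genes), 36.6% and 29.4% in an NK gate (Ncr1 and Klrb1c), and 10.1% and 8.68% in a basophil and mast cell gate. Most deep cells did not carry the label at equal depth. Thinned, 12% of the deep HFD cells and 8.33% of the deep ND cells had 3 or more markers, near the level of the basophil gate, against 94.4% and 96.1% of cells under 8000 UMIs. The 3-marker test before thinning failed in 8 of 25 deep HFD and 12 of 24 deep ND cells, and in 6 and 2 of the shallower cells.

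**Figure D1:**
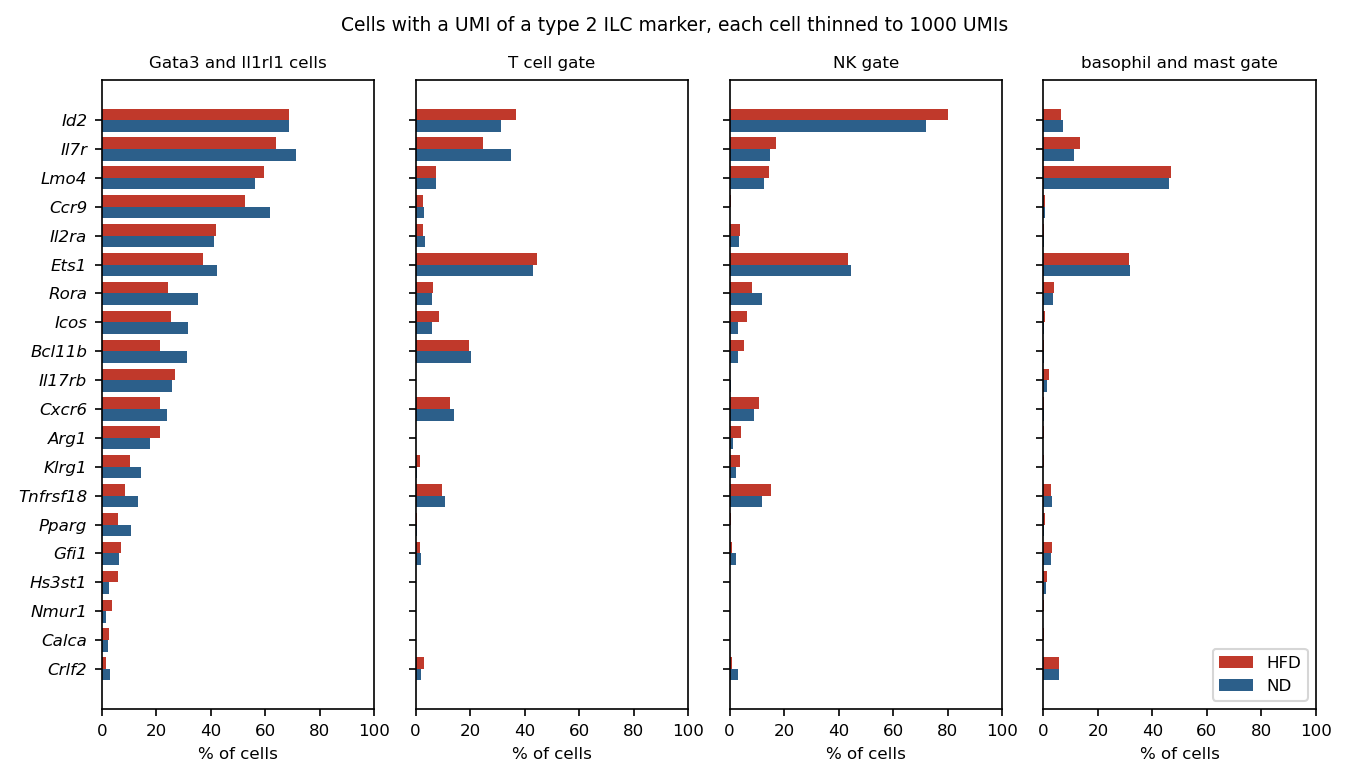
Share of cells with at least 1 UMI of each of the 20 type 2 ILC markers that had 20 or more UMIs in the gate, after each cell was thinned to 1000 UMIs. Panels are the Gata3 and Il1rl1 cells and 3 comparison gates, with HFD bars above ND bars. Il17rb, Ccr9, Il2ra and Arg1 are far higher in the first panel than in the T cell gate, while Ets1 is at a like level there.

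Markers of other lineages were counted in the same way. Of the 8 ILC3 markers in the tables, no cell had 3, and 0 of 188 HFD and 0 of 256 ND cells allows a share of up to 1.60% and 1.17% when 3 counts are set against each total. Il23r, the interleukin-23 receptor of ILC3, had 0 UMIs in both libraries. The list was low but not absent. In 145 of 188 HFD and 191 of 256 ND cells none of the 8 was seen. In the T cell gate the same held for 558 of 629 and 544 of 611 cells. Among all other cells it held for 14668 of 15462 and 13215 of 14046. The 1 gene of the list with 20 or more UMIs in the gate was at least 4-fold higher than in all other cells. Of 18 NK and ILC1 markers, 3 or more were found in 6 HFD and 9 ND cells, of which 5 and 7 were deep. Foxp3, the regulatory T cell factor, was seen in 3 and 4 cells. At least 3 of 15 T cell markers occurred in 31 HFD (16.5%) and 47 ND cells (18.4%), and after thinning in 4.30% and 3.12%, against 67.4% and 68.4% of the T cell gate. At least 3 of 12 neutrophil markers occurred in 46 HFD (24.5%) and 30 ND cells (11.7%). The counts were 9 and 7 cells for basophil and mast markers, 8 and 5 for B lineage markers, 16 and 21 for monocyte and dendritic markers, 2 and 1 for eosinophil markers, and 2 and 1 for regulatory T cell markers. Among the deep cells several of these lists were common before thinning. At least 3 of 15 stem and progenitor markers occurred in 18 of 25 deep HFD and 19 of 24 deep ND cells, but in 8 HFD and 8 ND cells of lower depth. At least 3 of 10 erythroid markers occurred in 56% and 50% of deep cells, against 2.45% and 2.59% of the others. Neutrophil markers reached 3 in 13 deep HFD and 12 deep ND cells, and monocyte and dendritic markers in 9 and 8. These counts rise with depth. After thinning, the stem and progenitor list reached 3 in 4 deep HFD and 3 deep ND cells, the erythroid list in 3 and 0, the neutrophil list in 0 and 4, and the monocyte and dendritic list in 3 and 0. The tag against CD117 (Kit, a receptor of progenitors and mast cells) had 10 or more molecules on 19 of 25 deep HFD and 20 of 24 deep ND cells, against 6.13% and 4.74% of the shallower cells. One eosinophil marker, the granule protein gene Prg2, had 1916 UMIs in 17 HFD cells and 1765 in 22 ND cells, and 51.1% of all these UMIs lay in 1 cell.

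The antibody tags give a readout that the gate did not use. Sca-1 (the tag against Ly-6A and Ly-6E), a surface protein of marrow ILC2, stem cells and activated lymphocytes, had a median of 49 tag molecules (quartiles 12 to 102) in HFD cells and 87 (41 to 154) in ND cells. The median was 0 and 1 in the T cell gate, and 0 in both libraries in the NK gate, in the basophil gate and over all cells. At least 10 molecules were found on 148 HFD cells (78.7%, 72.2 to 84.3%) and on 222 ND cells (86.7%, 81.9 to 90.6%). In the T cell gate the share was 8.11% and 6.38%, and in the NK gate 3.23% and 3.08%. Though the gate holds few cells of each library, it held 22.3% of all HFD cells and 25.6% of all ND cells with 10 or more Sca-1 molecules.

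The tag and the transcripts overlapped closely. Every one of the 148 HFD and 222 ND cells with 10 or more Sca-1 molecules had 3 or more of the other type 2 ILC markers, and none of the 14 HFD and 14 ND cells with fewer than 3 markers reached 10 molecules. Among deep cells, 8 of 25 (HFD) and 7 of 24 (ND) reached it. At the edge of the gate, 2 of the 6 HFD and 4 of the 10 ND cells with 1 UMI each of Gata3 and Il1rl1 did so. Outside the gate, 10.7% and 12.6% of cells with Gata3 alone and 2.62% and 3.66% of cells with Il1rl1 alone reached it. The HFD medians lie below the ND medians, and so did the tags of the whole HFD library, with a median of 28 tag molecules per cell against 44 in the ND library. The part of that library-wide gap in the Sca-1 gap was not tested. Ly6a, which encodes the Sca-1 protein, had 866 CPM (UMIs per 1000000 UMIs of the summed cells) in HFD and 1013 CPM in ND cells. Its log2 ratio, HFD against ND, was -0.23 (-0.35 to -0.10) over all cells and -0.07 (-0.20 to 0.05) under 8000 UMIs.

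**Figure D2:**
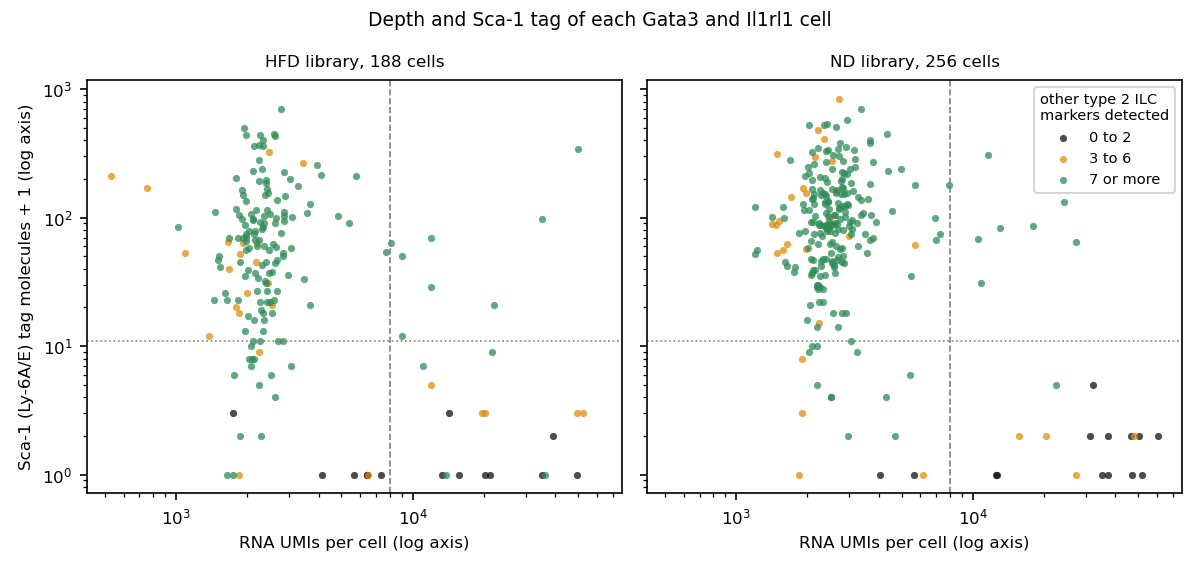
Each point is 1 Gata3 and Il1rl1 cell, with its RNA UMIs on the x axis and its Sca-1 tag molecules plus 1 on the y axis, both on log axes, HFD left and ND right. Colour gives the number of other type 2 ILC markers, the dashed line 8000 UMIs and the dotted line 10 tag molecules. Cells with 0 to 2 markers lie below the dotted line in both libraries. The median cell has 2357 UMIs and 49 tag molecules in HFD, and 2557.5 UMIs and 87 tag molecules in ND.

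Genes were then ranked by their level in these cells over all other cells, taking the lower of the folds in the 2 libraries. The 25 leading genes include known ILC2 genes, but many of the 25 stand outside the type 2 ILC marker list. Of the 9032 genes with 20 or more UMIs in the gate, 0.487% were at least 4-fold higher than in all other cells in both libraries, and 11 of the 20 testable type 2 ILC markers were among them. Against the T cell gate 0.853% of genes and 5 markers were 4-fold higher, and against the NK gate 0.664% of genes and 3 markers. No marker was 4-fold lower than in any of these, where 0.609%, 0.609% and 0.709% of genes were. Rnf128, which encodes the ubiquitin ligase GRAIL, led with 303 CPM in HFD and 419 CPM in ND cells, at least 24.3-fold over other cells after 10 CPM were added to both. It was seen in 41.4% and 50.8% of thinned cells, against 0.795% and 0.982% in the T cell gate. Il2ra, the CD25 chain of the interleukin-2 receptor, was in 41.9% and 41.0% of thinned cells, against 2.86% and 3.44% of T cells. Arg1, an arginine-degrading enzyme known in ILC2 and their precursors, had 132 of the 219 Arg1 UMIs of all HFD cells and 164 of the 246 UMIs of all ND cells here. The NK gate held 60 and 34 more, at 72.9 CPM in HFD and 22.8 CPM in ND cells, against 131 and 123 CPM in the Gata3 and Il1rl1 cells. Without their deep cells, the Gata3 and Il1rl1 cells had 297 CPM in HFD and 249 CPM in ND. Arg1 was in 21.5% and 17.6% of their thinned cells, against 4.30% and 1.12% of the NK gate.

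For some leading genes the gate held most of the UMIs of the library. B3galt2, a galactosyltransferase gene, had 79.0% (HFD) and 84.8% (ND) of all its UMIs in these cells, and the polarity gene Pard3 had 70.1% and 72.1%. Cysltr1, a receptor for cysteinyl leukotrienes, was in 26.9% and 33.6% of thinned cells, and in 0% and 0.164% of T cells. The remaining leading genes include Inpp4b, a phosphoinositide phosphatase gene, the RNA decay factor Zfp36l1, the sialyltransferase St3gal6, and Axin2, a target and inhibitor of Wnt signalling.

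A trio of the leading genes lies side by side on chromosome 9. In the RefSeq annotation Lztfl1 and Ccr9 are neighbours with 0 annotated genes between them, and Fyco1 alone separates Ccr9 from Cxcr6. Ccr9, the gut-homing chemokine receptor, had 575 CPM in HFD and 860.4 CPM in ND cells, against 28.4 and 27.5 CPM in the T cell gate. Lztfl1, a ciliary trafficking regulator also expressed in lymphocytes, had 466 and 527 CPM, against 18.5 and 20.6 CPM in T cells. Cxcr6, the receptor for CXCL16, had 118 and 184 CPM, while T cells had 159 and 154 CPM. Without the deep cells the Cxcr6 level was higher, at 280 CPM in HFD and 376 CPM in ND cells under 8000 UMIs. Cxcr6 was in 21.5% and 23.8% of thinned cells, against 12.7% and 13.9% of T cells. The gene between Ccr9 and Cxcr6, Fyco1, had 54.5 and 68.4 CPM, and 34.1 and 44.7 CPM in T cells. On the outer sides Slc6a20a had 2 and 0 UMIs, and Xcr1 had 0 in both libraries.

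**Figure D3:**
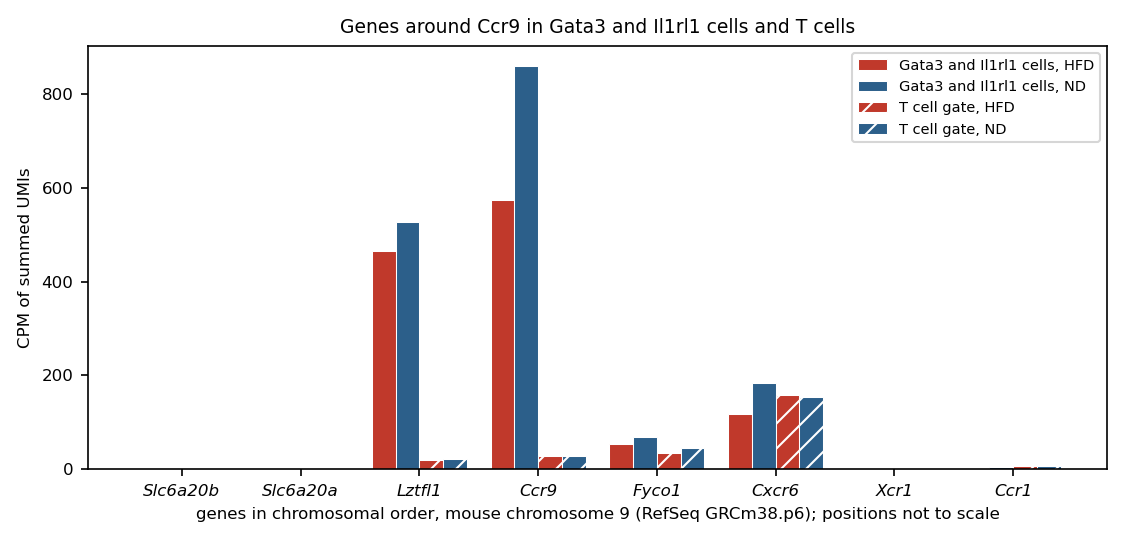
CPM of 8 genes in their order on mouse chromosome 9 (distances not drawn to scale), in the Gata3 and Il1rl1 cells and in the T cell gate, HFD bars left of ND bars. Lztfl1 and Ccr9 are far higher in the Gata3 and Il1rl1 cells than in T cells, Cxcr6 is at a like level in T cells, and the outer genes are near 0.

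Among transcription regulators, 24 of 25 (Gata3 left out) had enough UMIs. Id2, which blocks the B and T cell fates, was in 68.8% of thinned HFD and 68.8% of thinned ND cells. In the T cell gate it was in 36.9% and 31.3%, and in the NK gate, at a higher share, in 80.1% and 72.0%. Lmo4, a LIM-only cofactor, was in 59.7% and 56.3%, against 7.63% and 7.36% of T cells. Rora, needed for ILC2 development, was in 24.2% and 35.2%, against 6.36% and 6.06% of T cells and 8.06% and 11.8% of the NK gate. Maf was in 29.0% and 30.5%, against 8.90% and 7.69% of T cells. Bcl11b, which holds the ILC2 fate, was in 21.5% and 31.2%, against 19.7% and 20.3% of T cells. Its level was 140 CPM in HFD and 179 CPM in ND cells, and 321 and 357 CPM under 8000 UMIs. T cells had 204 and 211 CPM of Bcl11b. Pparg, the lipid-sensing receptor of fat ILC2, was in 5.91% and 10.5%, against 0.318% and 0.327% of T cells. Of 16 genes of ILC precursors, 15 had enough UMIs. Among these, 1 was 4-fold higher and 4 were 4-fold lower than in the T cell gate in both libraries, beside 0.853% and 0.609% of all genes. Tcf7 was in 4.84% and 2.73% of thinned cells, against 31.6% and 39.6% of T cells, Zbtb16 (PLZF) had 11 and 22 UMIs, and Pdcd1 had 2 in each library. Hlf, which stands in the stem cell list, had UMIs in 88 of 188 HFD and 129 of 256 ND cells, and in 25.3% and 25% of thinned cells against 0.954% and 0.982% of T cells.

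Of 20 alarmin and cytokine receptors with enough UMIs, 4 were at least 4-fold higher than in all other cells and 0 were 4-fold lower. Of all genes tested, 0.487% and 0.609% were. Against the T cell gate 3 receptors were higher and 1 lower, beside 0.853% and 0.609% of all genes. Against the NK gate 3 were higher and 3 lower, beside 0.664% and 0.709% of all genes. Il17rb, the receptor chain for interleukin-25, was in 26.9% of thinned HFD and 25.8% of thinned ND cells, and in 0% and 0.164% of T cells. Il7r was in 64.0% and 71.1%, against 24.8% and 34.9% of T cells. Il9r, the interleukin-9 receptor gene, had 43 and 80 UMIs, 48.3% and 60.6% of those of each library. Crlf2, the TSLP receptor chain, had only 18 and 25 UMIs, and Il1rap, the partner chain of ST2, only 4 and 11. Il2rb, the chain shared by the interleukin-2 and interleukin-15 receptors, was in 4.30% and 2.73% of thinned cells, against 66.3% and 59.4% of T cells. Il18r1, a marker of ILC2 precursors and of interleukin-18 responsive ILC2, was seen in 7 HFD and 15 ND cells.

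Il5 and Il13 transcripts were almost missing, and Il4 was low. Il5 and Il10 had 0 UMIs in the gate in both libraries, and the limit that a count of 0 allows, 3 counts over the gate, is 2.97 CPM in HFD and 2.25 CPM in ND cells, and Il5 had 2 UMIs over all HFD cells and 2 over all ND cells. Il13 had 0 and 4 UMIs, and Areg, for amphiregulin, 5 and 5. Il4 had 20 and 22 UMIs, of 588 and 713 over all cells. Of the 8 secreted factors with enough UMIs, Tnfsf11 was 4-fold higher and Ccl3 4-fold lower than in all other cells in both libraries. Of all genes tested, 0.487% were higher and 0.609% lower by this measure. A few factors of low level had most of their UMIs in these cells. Calca, the gene of the neuropeptide CGRP, had 24 UMIs in 8 HFD cells and 33 UMIs in 21 ND cells, 75% and 97.1% of all its UMIs. Csf2 (GM-CSF) had 22 and 30 UMIs, 51.2% and 53.6% of the total, and Tnfsf11 (RANKL, the osteoclast factor) had 44 and 65 UMIs, 55.7% and 62.5% of the total. Nmur1, the neuromedin U receptor of ILC2, had 14 and 16 UMIs, 66.7% and 94.1% of the total. Ptgdr2 and Tph1 had 0 UMIs here and at most 3 over all cells of a library.

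Of the T cell receptor constant genes named here, Trbc2 was seen far more often than Trac. Trbc2 was in 86 of 188 HFD and 127 of 256 ND cells, and in 29.0% and 26.2% of thinned cells, against 78.2% and 74.3% of T cells. Trac, the alpha chain constant gene, was in 7 and 8 cells, and in 2.69% and 1.17% of thinned cells against 54.8% and 53.0% of T cells. The gate itself keeps out cells with 2 or more Cd3 genes, so a low Cd3 level here is no result. The part of that exclusion in the low Trac level was not tested.

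These cells were a smaller share of the HFD library. They were 1.20% of HFD cells (1.04 to 1.38%) and 1.79% of ND cells (1.58 to 2.02%), a ratio of 0.671 (0.557 to 0.809). Under 8000 UMIs there were 163 HFD and 232 ND cells, with a ratio of 0.642 (0.526 to 0.783), and the cells with 10 or more Sca-1 molecules gave 0.609 (0.495 to 0.749). The whole HFD library had fewer tag molecules per cell, as given above, and the part of that in the last ratio was not tested. The T cell gate held 629 and 611 cells, with a ratio of 0.941, and the basophil and mast gate 2352 and 2358, with a ratio of 0.912. The NK gate held 186 and 357 cells, with a ratio of 0.476, lower than that of the Gata3 and Il1rl1 cells. Shares sum to a fixed total, and the neighbouring cells with Gata3 alone (0.694) or Il1rl1 alone (0.713) had like ratios. With 1 library per diet, the diet and the library cannot be told apart.

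For expression, the UMIs of the gate were summed per library, and log2 ratios set the CPM of HFD cells over that of ND cells. Calls needed a change of 1.5-fold or more and an interval that left out 0. Of 9032 genes, 295 were higher in HFD (3.27%) and 276 lower (3.06%). Under 8000 UMIs, 258 of 6893 were higher (3.74%) and 163 lower (2.36%). Of the genes called over all cells, 88 of the 295 and 81 of the 276 were called in the same direction under 8000 UMIs, and the others were not called or not tested there. Neutrophil transcripts differed between the libraries, in a direction that depended on the deep cells. Over all cells the median of 12 markers was -0.33 (-0.74 to 0.62), with 2 called higher and 3 lower, and their summed level was 3839 CPM in HFD and 5271 CPM in ND cells. Under 8000 UMIs 8 of the 12 were called higher in HFD, with a median log2 ratio of 1.21, and the median over the T cell gate was 1.21 too. Their summed level under 8000 UMIs was 6907 CPM in HFD and 3218 CPM in ND cells, and their part in the results below was not tested. Erythroid markers were lower in HFD cells under 8000 UMIs, with 4 of 5 called lower. Their summed level there was 292 CPM in HFD and 2849 CPM in ND cells. The erythroid median was -3.75 (-5.67 to -1.01) in the T cell gate and 2.08 (0.16 to 2.49) in the NK gate. B lineage markers had a median of 1.64 (0.07 to 4.24) over all cells, with 6 called higher and 1 lower, and of 0.66 under 8000 UMIs. Their summed level was 555 CPM in HFD and 525 CPM in ND cells over all cells, and 783 and 967 CPM under 8000 UMIs. Monocyte and dendritic markers had a median of 0.94 (-0.34 to 3.62), with 6 higher and 1 lower, and of 0.11 under 8000 UMIs, with summed levels of 1304 CPM in HFD and 938 CPM in ND cells over all cells. Eosinophil markers had a median of 0.52 (0.11 to 1.32) with 1 of 7 called higher, and of 0.76 (0.48 to 1.54) under 8000 UMIs with 3 of 6 called higher. The part of these lists in the results was not tested.

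The heat shock gene Hspa1b, an inducible HSP70, had the highest ratio of the genes that could be named. It had 145 UMIs in 22 HFD cells and 8 UMIs in 5 ND cells, or 144 CPM in HFD and 6.01 CPM in ND cells, a log2 ratio of 4.58 (3.56 to 5.82). Under 8000 UMIs it was found in 16 HFD and 5 ND cells, with a ratio of 3.27 (2.18 to 4.55). The ratio was 3.30 in the T cell gate, 3.26 in the NK gate and 3.62 over all other cells, so a like ratio was seen in each. One cell held 32.7% of its UMIs. The heat shock and immediate early list had a median of 0.04 (-0.03 to 0.24), or 0.20 (0.09 to 0.42) under 8000 UMIs. Of 20 tested, 2 were called higher, Hspa1b and Hspa1a, beside 3.27% of all genes. Hspa1a had 21 UMIs in 6 HFD cells, 61.9% of them in 1 cell, and 0 in ND cells. Under 8000 UMIs Hspa1b, Hsph1 (1.27), Dnajb1 (0.70) and Hspa8 (0.63), all chaperone genes, were called higher.

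Genes of cholesterol and fatty acid synthesis had lower values in the HFD cells. Over 22 tested genes the median log2 ratio was -0.46 (-0.74 to -0.19), against 0.00 over all genes, and 3 were called lower and 0 higher. Among all genes tested 3.06% were called lower and 3.27% higher. Scd2, a fatty acid desaturase, had 88 UMIs in 52 HFD cells and 228 UMIs in 109 ND cells, or 87.2 CPM in HFD and 171 CPM in ND cells, a ratio of -0.97 (-1.35 to -0.61). Idi1, of the mevalonate pathway, had 35 and 73 UMIs, a ratio of -0.66 (-1.29 to -0.06), and -0.63 (-2.03 to 0.63) under 8000 UMIs. The cell with the most Scd2 UMIs held 3.16% of them.

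Scd2 had a ratio as low without the deep cells. Under 8000 UMIs the list median was -0.64 (-1.10 to 0.07) over 12 genes. Scd2 was at -1.10 (-1.65 to -0.58), with 98.1 CPM in HFD and 210.6 CPM in ND cells. Srebf2, the transcription factor that drives the pathway, was then called lower too at -0.90 (-1.53 to -0.31), with 32 UMIs in 27 HFD cells and 92 UMIs in 75 ND cells. In the T cell gate the list median was -0.13 and Scd2 was at -0.12, and in the NK gate they were -0.14 and -0.41. Over all other cells Scd2 was at -0.44. The difference between cell types was not tested, since there is no replicate library.

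Genes of lipid uptake, storage and oxidation had a median of 0.01 (-0.13 to 0.25) over 24 genes, of which 3 were higher and 1 lower. The median was 0.04 (-0.15 to 0.28) under 8000 UMIs, with 2 higher and 1 lower. Among all genes tested 3.27% were higher and 3.06% lower, and under 8000 UMIs 3.74% and 2.36%. Plin2, which coats lipid droplets, had 43 UMIs in 25 HFD cells and 16 UMIs in 12 ND cells, a ratio of 1.82 (0.97 to 2.75), and 2.94 (1.37 to 4.95) under 8000 UMIs on 20 and 4 UMIs. Its ratio was 0.56 in the T cell gate, 0.60 in the NK gate and 0.62 over all other cells. Cpt1a, which admits fatty acids to mitochondria, had 168 and 126 UMIs, a ratio of 0.81 (0.47 to 1.16), and 0.78 (0.29 to 1.28) under 8000 UMIs, and it was at 0.88 in T cells and 0.88 in NK cells. Acot1, an acyl-CoA thioesterase, had 28 and 6 UMIs, a ratio of 2.62 (1.32 to 4.18), with 10 and 5 UMIs left under 8000 UMIs. Lpl, the lipoprotein lipase, was lower, with 14 UMIs in 6 HFD and 43 UMIs in 8 ND cells, at -1.22 over all cells and -1.07 (-2.09 to -0.15) under 8000 UMIs.

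**Figure D4:**
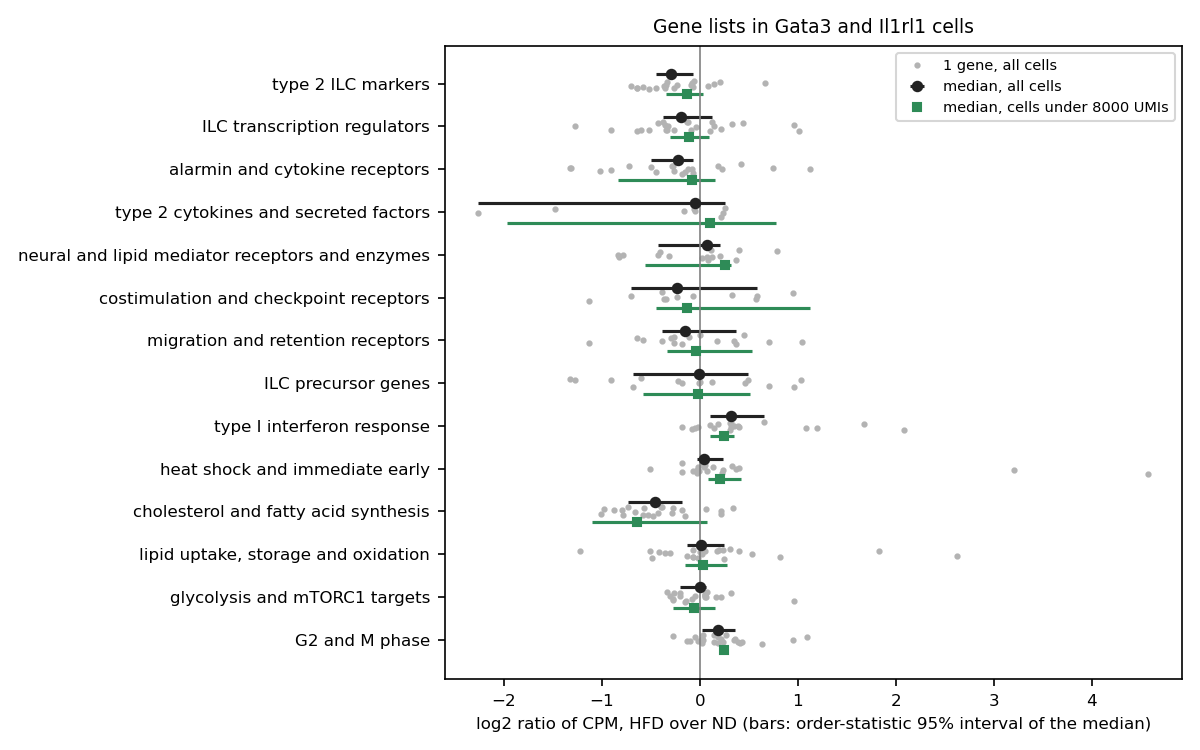
Log2 ratio of HFD over ND for the genes of 14 lists in the Gata3 and Il1rl1 cells (grey points, genes with 20 or more UMIs), with the median over all cells (black) and under 8000 UMIs (green) and their 95% order-statistic intervals, where the number of genes allows one. The cholesterol and fatty acid synthesis list has the lowest median, -0.46, and the type I interferon list the highest, 0.31.

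Type I interferon response genes had higher values in HFD cells. The median of 19 genes was 0.31 (0.10 to 0.65), with 5 called higher and 0 lower, beside 3.27% and 3.06% of all genes. It was 0.24 (0.11 to 0.35) under 8000 UMIs, and 0.37 in the T cell gate and 0.63 in the NK gate. Slfn5, an interferon-induced regulator, had 53 UMIs in 28 HFD cells and 33 UMIs in 27 ND cells, a ratio of 1.08 (0.43 to 1.76), and 1.01 (0.28 to 1.76) under 8000 UMIs. Rtp4 had 29 UMIs in 15 HFD cells and 9 UMIs in 9 ND cells, a ratio of 2.09 (0.97 to 3.35), and 1.71 (0.42 to 3.13) under 8000 UMIs. Isg20 and Bst2 were called over all cells, at 1.19 and 0.65, and their intervals under 8000 UMIs included 0. Ifi27l2a was called with UMIs in 12 HFD and 4 ND cells.

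The ILC2 genes themselves had ratios somewhat below 0. The 20 markers had a median of -0.30 (-0.45 to -0.08), with Rora (-0.64), Icos (-0.70) and Cxcr6 (-0.64) called lower and 0 called higher. Among all genes tested 3.06% were called lower and 3.27% higher. Under 8000 UMIs the median was -0.13 (-0.34 to 0.03) and 0 were called. Rora, Icos and Cxcr6 then had ratios of -0.45 (-0.72 to -0.18), -0.44 (-0.72 to -0.17) and -0.43 (-0.76 to -0.10), which leave out 0 but are under 1.5-fold. The cytokine receptors had a median of -0.23 (-0.50 to -0.08) over all cells and -0.08 (-0.84 to 0.15) under 8000 UMIs. Cysltr1 was called lower in both, with 127 UMIs in 77 HFD cells and 296 UMIs in 134 ND cells, a ratio of -0.82 (-1.13 to -0.52), and -0.61 (-0.93 to -0.30) under 8000 UMIs. It was at 0.43 over all other cells. Il18r1 and Il10ra were also lower in both, at -1.32 and -1.02 over all cells, on few cells each.

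Socs1 and, under 8000 UMIs, Cish were called higher in HFD cells. Socs1, an inhibitor of JAK and STAT signalling, had 50 UMIs in 39 HFD cells and 34 UMIs in 31 ND cells, a ratio of 0.96 (0.30 to 1.63), and 1.13 (0.43 to 1.84) under 8000 UMIs. Cish, an inhibitor of the interleukin-2 and interleukin-7 pathways, had 79 and 70 UMIs, a ratio of 0.57 (0.09 to 1.06), just under the 1.5-fold line, and 0.76 (0.27 to 1.26) under 8000 UMIs, where it was called. In the T cell gate Cish was at 1.17 and Socs1 at 0.51. The costimulation and checkpoint list as a whole had a median of -0.23 (-0.70 to 0.58), with 1 gene higher and 1 lower. Its median was -0.13 (-0.44 to 1.13) under 8000 UMIs, with 3 higher and 0 lower. Among all genes tested 3.27% were higher and 3.06% lower, and under 8000 UMIs 3.74% and 2.36%. Zbtb7b, the ThPOK regulator, had 37 UMIs in 25 HFD and 25 UMIs in 23 ND cells, a ratio of 0.96 (0.19 to 1.76) and 1.44 (0.54 to 2.39) under 8000 UMIs. Cxcr4, the marrow retention receptor, had 67 UMIs in 28 HFD and 43 UMIs in 21 ND cells, a ratio of 1.04 (0.46 to 1.63), and 1.48 (0.35 to 2.69) under 8000 UMIs.

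Further genes with low HFD ratios stayed low under 8000 UMIs. Neb, which encodes the giant muscle filament protein nebulin, had 32 UMIs in 25 HFD cells and 99 UMIs in 61 ND cells, a ratio of -1.23 (-1.85 to -0.64), and -1.19 under 8000 UMIs. It had 15 HFD and 7 ND UMIs in the T cell gate, a ratio of 0.99 (-0.39 to 2.53), and 0 UMIs in the NK gate in both libraries. Zfp1, a zinc finger gene, was at -1.19 (-1.89 to -0.53) over all cells and -1.20 under 8000 UMIs. Ikzf3 (Aiolos), a lymphoid Ikaros-family regulator, had 43 UMIs in 32 HFD and 111 UMIs in 83 ND cells, a ratio of -0.97 (-1.51 to -0.45), and -0.82 (-1.42 to -0.26) under 8000 UMIs. Gstm1 and Klf9 were at -1.24 and -0.91, with intervals under 8000 UMIs that included 0.

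Several named genes rested on the deep cells or on a handful of cells. Ms4a6c was at 1.62 over all cells and -1.19 under 8000 UMIs, and Ms4a4b at -2.23 and 0.71, so their direction turned. Hells, a replication gene, and the myeloid regulator Irf8 had 4 and 14 UMIs in HFD cells under 8000 UMIs, and 5 and 11 in ND cells. Gon7 was at -1.08 and then -0.10. Cd79a, a B cell gene, was at 2.24 with UMIs in 7 HFD and 3 ND cells and at 1.66 under 8000 UMIs, and the neutrophil protease gene Mmp9 at 1.32 with UMIs in 11 HFD and 9 ND cells and at 1.54 under 8000 UMIs. Ccl5, an NK and T cell chemokine, was at -1.64 in 16 HFD and 39 ND cells, and -0.96 under 8000 UMIs. Lgals1 (1.34), Ifitm3 (1.16) and Fkbp1a (1.06) were higher over all cells, and under 8000 UMIs at 1.10, 1.11 and 0.62.

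Transcription regulators had a median of -0.20 (-0.38 to 0.12), and -0.12 (-0.31 to 0.09) under 8000 UMIs. Bach2, a repressor of effector programmes, was higher at 1.01 and 1.41, and Tox, needed for early ILC development, lower at -0.91 and then not called at -0.69. Migration and retention receptors had -0.15 (-0.39 to 0.36) and -0.04 (-0.34 to 0.53), precursor genes -0.01 (-0.69 to 0.49) and -0.02 (-0.59 to 0.51), and glycolysis and mTORC1 targets 0.00 (-0.21 to 0.06) and -0.07 (-0.27 to 0.16), each over all cells and then under 8000 UMIs. Secreted factors had -0.05 over 8 genes and 0.10 over 6. Ccl3 was lower at -2.26, with 3 and 18 UMIs left under 8000 UMIs (interval -4.37 to -0.19), and Vegfa at -1.48 with 2 and 4 UMIs left under 8000 UMIs. Neural and lipid mediator genes had 0.08 and 0.25 over 15 genes. G2 and M phase genes had 0.19 (0.02 to 0.35) over 24 genes, with Plk1 (0.64) and Aurka (1.09) higher, beside 3.27% of all genes. The median of this list was 0.44 (0.34 to 0.60) in the T cell gate and 0.35 (0.05 to 0.65) in the NK gate. Under 8000 UMIs 3 of the 24 genes were left to test.

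**Figure D5:**
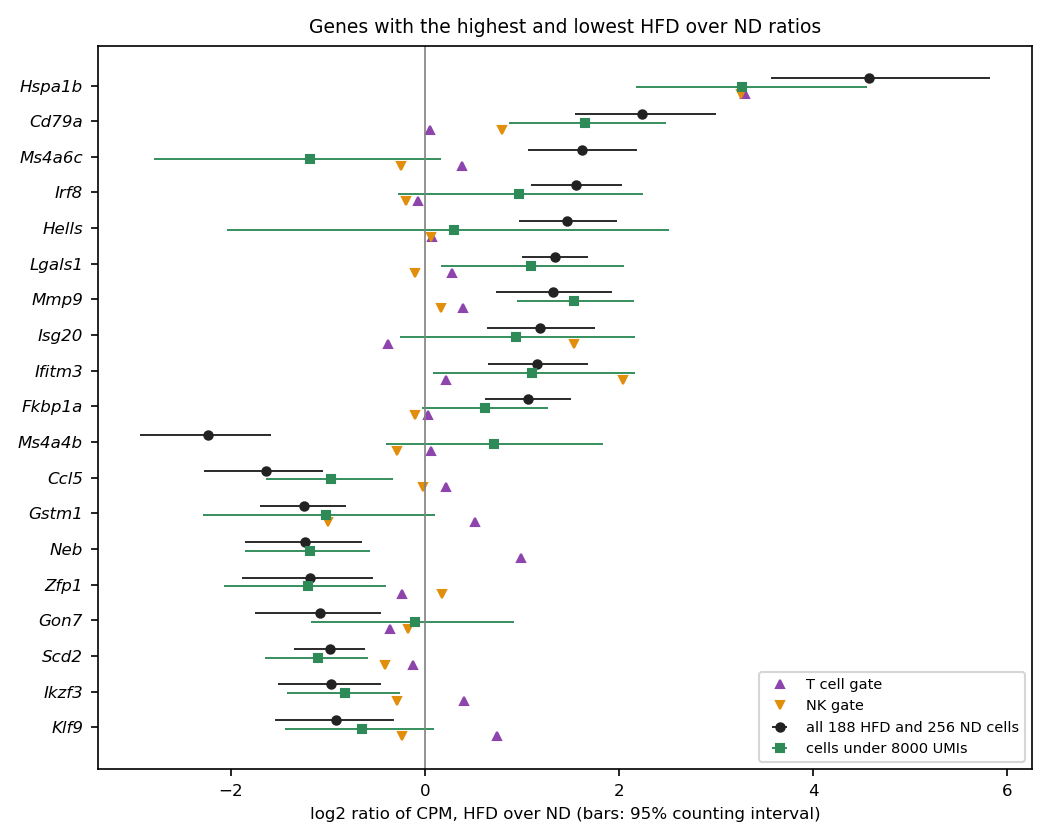
Log2 ratio of HFD over ND with 95% counting intervals for the named genes with the highest and the lowest ratios, in all Gata3 and Il1rl1 cells (black) and in those under 8000 UMIs (green), with the ratios of the T cell gate (upward triangles) and NK gate (downward triangles) where they had UMIs. Hspa1b is high in every set of cells drawn, Scd2, Neb, Zfp1 and Ikzf3 keep their value under 8000 UMIs, and Ms4a6c and Ms4a4b change sign.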

How the data were processed

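The deposited files hold raw counts of molecules (UMIs) for each gene and each of 5 antibody tags in single cells. Per the file headers the authors used version 1.9.1 of BD's WTA Rhapsody Analysis Pipeline. The genome build is not given in the sources used. All values were whole numbers. Of 24014 gene symbols 20478 stood in both tables, and one found in a single table counted as 0 in the other.

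Without the tag columns, a cell needed 200 genes or more and a mitochondrial share of 25% or less. UMIs were summed over the chosen cells and divided by their total (CPM). Log2 ratios carry exact conditional binomial 95% intervals, shares exact Clopper-Pearson intervals, the ratio of shares a log-scale interval, and list medians order-statistic intervals. For ratios, a sum of 0 was replaced by 3 counts. Genes in ratios and lists needed 20 UMIs over both libraries. With 1 library per diet no test was run, and intervals and floors cover counting error only. Doublets were not removed. Scrublet (scanpy 1.11.5, expected rate 5%) called 432 HFD (2.76%) and 406 ND cells (2.84%), among them 2 HFD and 3 ND cells of the gate. The interval computation was tested on simulated Poisson sums, which leave out the clustering of UMIs in single cells. Python 3.11.15, scipy 1.17.1 and matplotlib 3.10.9 were used.

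The members, gene lists and comparison gates were chosen with earlier results of these data known. Named were list genes, the 25 genes with the highest lower-of-2 fold over other cells (pseudocount 10 CPM, in at least 20% of cells of each library), and the 10 highest and 10 lowest called diet ratios among genes with 100 UMIs in at least 10 cells and no cell with over 33.3% of the UMIs. These rankings left out numbered gene models and the genes of ribosomes, mitochondria, haemoglobin, immunoglobulins and T cell receptors. Trbc2, Trac, Fyco1, Slc6a20a, Xcr1 and Hlf were named after their values were seen. Alternatives changed the cell filter, doublets, the gate, the scaling, the depth, the UMI minimum and the fold. Of these, cells under 8000 UMIs and cells with 10 Sca-1 molecules were chosen after seeing the data. Some genes that these rules name are not reported here.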

Additional observations from a re-analysis of the deposited data

How the results depend on the processing

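The ratio of shares lay between 0.609 and 0.717 under 10 alternatives, all below 1 with their intervals. The share of cells with 3 or more other type 2 ILC markers, 92.6% in HFD and 94.5% in ND cells, became 97.7% and 99% with 2 or more UMIs of Gata3 and of Il1rl1, 96.3% and 99.1% under 8000 UMIs, 100% and 100% with 10 or more Sca-1 molecules, and 83.3% and 87.9% thinned to 1000 UMIs. Counts of called genes moved by over 1.5 times in these cases. Higher genes were 606 in cells with 3 or more other markers, 127 after thinning and 131 at a 2-fold threshold, and lower genes 163 under 8000 UMIs, 95 after thinning and 117 at 2-fold. Called genes were 51.7% higher in HFD in the main count, 60.4% in cells with 3 or more markers, 61.3% under 8000 UMIs, 63.1% with the Sca-1 tag and 60.6% with each cell weighted alike. No scaling moved the median of all genes by more than 0.03.

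In cells with 3 or more other markers the list medians were -0.55 for type 2 ILC markers, -0.41 for transcription regulators and -0.51 for receptors. Those cells were chosen by genes of that same type 2 ILC list, some of which also stand in the regulator and receptor lists. These medians are thus only a description. In the same cells heat shock was at -0.049 and G2 and M phase at 0.70. With 2 or more UMIs of both rule genes, heat shock was at 0.25 and G2 and M phase at 0.62, and with the Sca-1 tag 0.27 and 0.85. The neural and lipid mediator list was at 0.25 under 8000 UMIs, 0.23 with cells weighted alike and 0.22 after thinning. After thinning, receptors turned to 0.00 (0.0014), synthesis of cholesterol and fatty acids was at -1.12 and G2 and M phase at 0.58. The main medians of G2 and M phase and of the neural and lipid mediator list were 0.19 and 0.08.

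Directions turned for Gon7 (0.067), Il2rb (1.39) and Cd7 (1.64) with 2 or more UMIs of both rule genes, for Ms4a6c (-1.19) and Ms4a4b (0.71) under 8000 UMIs, for Ccl5 (0.00, 0.0028) with the Sca-1 tag, for Ms4a4b (0.080) and Aurka (-0.67) with cells weighted alike, and for Alox5ap (-0.24) after thinning. The causes were not tested. Depth limits the cytokine genes and every gene under 20 UMIs. The synthesis list kept its direction under every alternative run, between -1.12 and -0.40, and the type I interferon list between 0.12 and 0.36. No paired analysis was possible because each diet has 1 library.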
